A study of Mus musculus with 6 samples.

Results

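The genes of synaptic vesicle release were compared between wild type littermates and Dlx1/2 -/- mutant mouse embryos (E16.5), in tissue of the lateral ganglionic eminence (LGE). They were picked from the deposited gene table by a rule on symbols, set with earlier results of these data known: all numbered synaptotagmins (Syt), syntaxins (Stx), syntaxin binding proteins (Stxbp) and VAMPs, the SV2, synapsin (Syn), Rab3, complexin (Cplx), Rims and Unc13 genes, and Snap25, Syp, Bsn and Pclo. This gave 68 of 21286 genes in the table. The LGE is a germinal region of the ventral forebrain that forms the projection neurons of the striatum and interneurons of the olfactory bulb, and Dlx1 and Dlx2 are homeobox transcription factors of its progenitors and young neurons. RNA was sequenced from 3 wild type and 3 mutant libraries on a mixed background of C57BL/6J, 129S6 and CD1. The labels do not say which part of each gene the mutant alleles remove, nor whether a library came from 1 embryo or a pool, so the spread behind each p-value is that of these libraries and may be technical.

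Transmitter release rests on SNARE proteins. VAMP on the vesicle and syntaxin with SNAP25 on the plasma membrane coil together and draw the membranes into contact, and Munc13 (Unc13) proteins help to guide their assembly. Complexins clamp and assist the assembled SNAREs, synaptotagmins of the calcium-binding kind trigger fusion when calcium enters, and Rab3, Rims, Bassoon and Piccolo hold vesicles at the active zone. Much of this machinery is made in young neurons before synapses are mature, and several syntaxins and VAMPs serve general membrane traffic in all cells.

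Total counts ran from 10711630 to 16588359 per library. Dlx2 was at 436 ± 29.8 CPM (counts scaled to a common library size) in wild type and 16.8 ± 1.68 CPM in the mutant (mean ± SD, n = 3 libraries each), and Dlx1 at 858 ± 35.7 and 122 ± 14.4 CPM. Markers of the tissue were present: the summed level of 3 GABA neuron genes was 1116 to 1206 CPM in wild type and 387 to 405 CPM in the mutant, and that of 14 striatal projection neuron genes 2428 to 2517 and 842 to 894 CPM. Of 17 pan-neuronal genes 5 were higher and 6 lower (29.4 and 35.3%, beside 11.2 and 12.8% of all genes tested). Their sum was 8796 to 8922 CPM in wild type and 7866 to 8111 CPM in the mutant. Wild type replicate 1 stood apart in 2 uncalled genes of this list, singled out after their values were seen: Map2 was at 1156 CPM there against 474.8 and 469.8 CPM in the other wild type libraries, and Mapt at 238 against 933.5 and 1002 CPM, which offset each other in the sum. In this list Stmn2 and Tubb3 fell while Rbfox3 and Elavl4 rose, and its median log2 fold change was −0.0674. Of 14 progenitor and radial glia genes 7 rose, led by Hes5, Sox9 and Ptprz1, and the sum over the list went from 3397 to 4030 CPM to 4830 to 5007 CPM. In bulk tissue, fewer cells of a type and less RNA per cell cannot be told apart.

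Cplx2, Syt13 and Sv2c rose and Syt6 and Syt4 fell by more than 2-fold in the mutant. Of the 68 genes, 64 passed the filter on low counts, and 52 of these lay within 1.5-fold, as did 12756 of all 15326 genes tested. Among these, 22 passed the test (adjusted p below 0.05 by edgeR's quasi-likelihood method, with Benjamini-Hochberg adjustment over all genes tested), 5 higher and 17 lower in the mutant. That is 34.4% of them, beside 24.0% of all genes tested. The higher calls were 7.81% of the release genes, beside 11.2% of all genes, and the lower calls 26.6%, beside 12.8%. The median log2 fold change was −0.0977 for the release genes and 0.0028 for all genes, and the former was −0.202 without wild type replicate 1. Summed over the 68 genes, the level was 4193, 4466 and 4633 CPM in wild type and 4225, 4239 and 4188 CPM in the mutant, with overlapping groups. By at least 2-fold, 3 release genes rose and 2 fell, and 2.84% of all genes rose and 4.04% fell by that much. The groups did not overlap for 32 of the 64, and for 41.9% of all genes. In the authors' deposited table, 20 of these 22 genes had p below 0.05, as did the uncalled Rims1, Rab3c, Syt3, Syt7 and Sv2b. Those p-values come from the same libraries, so the shared calls are no independent support.

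**Figure D1:**
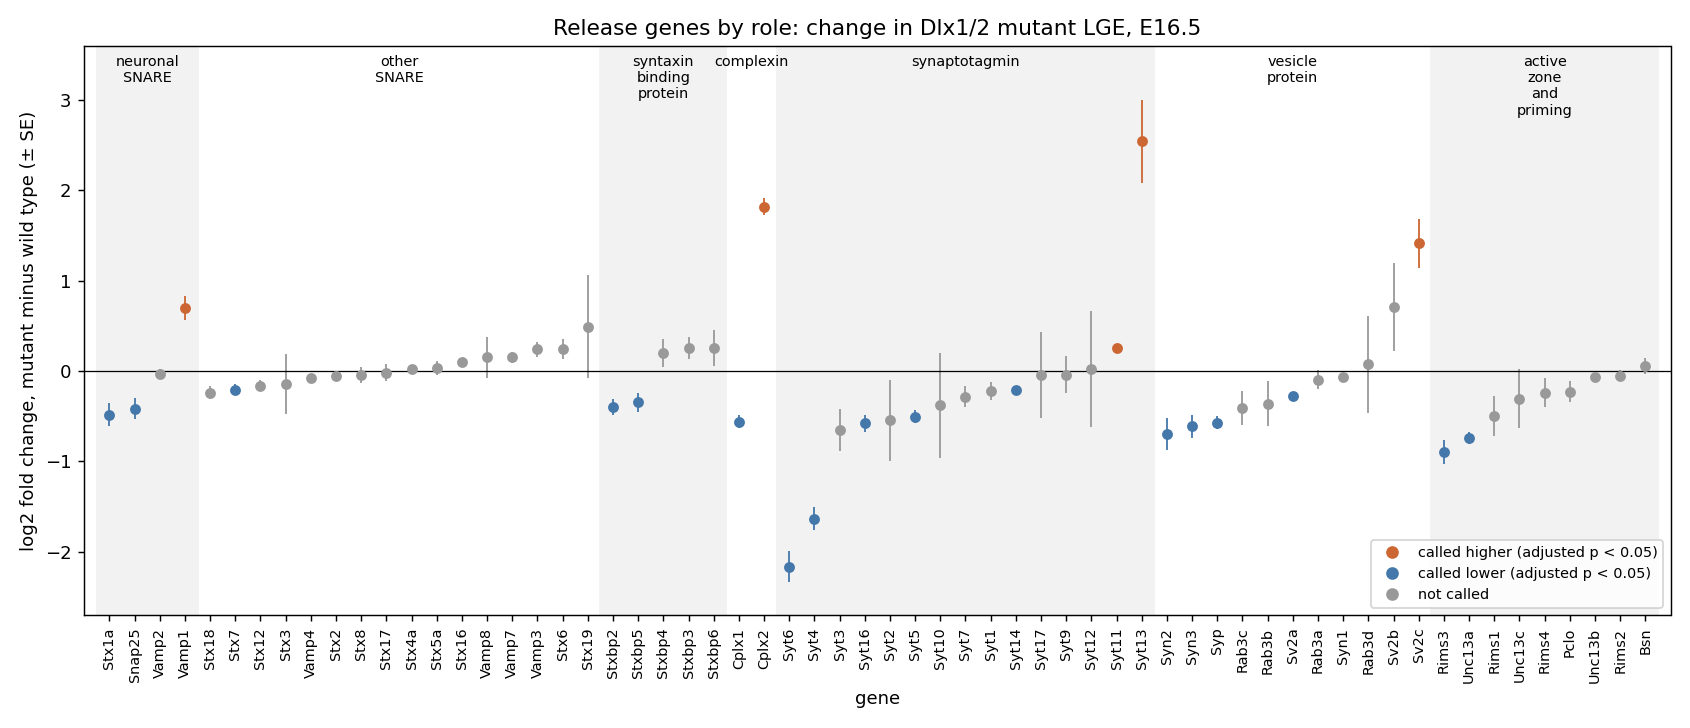
Log2 fold change of 62 of the 64 tested release genes (y axis, mutant minus wild type, bars are SE over 3 libraries per genotype), ordered within roles along the x axis; orange is called higher, blue called lower, grey not called. Syt13 (2.54) and Cplx2 (1.82) stand highest and Syt6 (−2.16) and Syt4 (−1.63) lowest, while the 16 tested syntaxins and VAMPs outside the neuronal set stay between −0.24 and 0.49.

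Markers of some other cell types also differed between genotypes. Of 11 genes of glutamatergic neurons 9 were tested and 6 rose (66.7%, beside 11.2% of all genes), with Bhlhe22, Neurod1, Neurod6 and Neurod2 leading. Their summed level was 30.0, 85.5 and 54.1 CPM in the wild type libraries and 265.6, 208.5 and 171 CPM in the mutant libraries. The other 3 tested genes were not called, among them Tbr1 at 5.74, 19.9 and 12.2 CPM in wild type and 9.75, 6.77 and 4.21 CPM in the mutant, and Eomes at 5.45, 14.6 and 5.85 against 5.49, 5.95 and 1.57 CPM. Emx1 and Slc17a7 were below 1 CPM in every library. Oligodendrocyte lineage markers summed to 111 to 150.5 CPM in wild type and 164 to 182 CPM in the mutant, with Olig2 and Pdgfra called higher of 7 (28.6%, beside 11.2% of all genes). Astrocyte markers summed to 290.6 to 308 and 314.5 to 382 CPM, with Aldoc and Slc1a2 called higher of 6, and erythroid markers to 435 to 644 and 582 to 781 CPM, with Hbb-bt and Hbb-y called higher of 6 (33.3% in each list, beside 11.2% of all genes). Microglia markers summed to 97.95 to 107 CPM in wild type and 109 to 142 CPM in the mutant, and endothelial and pericyte markers to 276.5 to 300.8 and 287.5 to 296.8 CPM. The part of these cells in the rises of Cplx2, Syt13, Sv2c, Vamp1 and Syt11 was not tested, nor that of the lower striatal and GABA neuron markers in the falls.

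The complexin paralogs Cplx1 and Cplx2 changed in opposite directions. These small proteins bind the SNARE bundle; Cplx1 and Cplx2 are the main forms of the brain. Cplx2 (ENSMUSG00000025867, GRCm38 chromosome 13, 54371349 to 54383917, plus strand) was at 122, 137 and 139 CPM in the wild type libraries and at 441, 447 and 519.8 CPM in the mutant libraries. All mutant values lay far above all wild type values. The log2 fold change was 1.82 ± 0.0963 (SE), or 3.53-fold, with adjusted p = 3.51e-06 (edgeR), and it ran from 1.74 to 1.87 when any library was left out. Cplx1 (ENSMUSG00000033615, chromosome 5, 108518554 to 108550024, minus strand) went the other way, with 66.3, 71.3 and 61.4 CPM in wild type and 43.8, 44.9 and 46.4 CPM in the mutant. It fell 1.47-fold (log2 fold change −0.56 ± 0.0669, edgeR adjusted p = 0.00108). Cplx3, a form best known from the retina, had 1 read in each genotype and was not tested.

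Per length, in the FPKM values that the authors deposited, Cplx1 and Cplx2 were made at about the same level in wild type and not in the mutant. Cplx2 held 47.8, 48.8 and 52.9% of the summed complexin FPKM in the wild type libraries and 83.3, 83.2 and 84.8% in the mutant libraries. The sum itself went from 50.6, 56.9 and 53.2 to 108.8, 110.0 and 124.5 FPKM. Cplx2 was the ninth release gene by wild type FPKM (26.7 ± 2.199) and the first by mutant FPKM (95.9 ± 8.33, n = 3), well above Stx7 at 49.5 ± 2.42. With GENCODE exon lengths in place of the authors' lengths Cplx2 was again first in the mutant, at 95.2 CPM per kilobase, and had place 11 in wild type. By these lengths Syt11 had place 2 in the mutant, at 71.0 CPM per kilobase, and Stx7 only place 9, at 27.5.

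**Figure D2:**
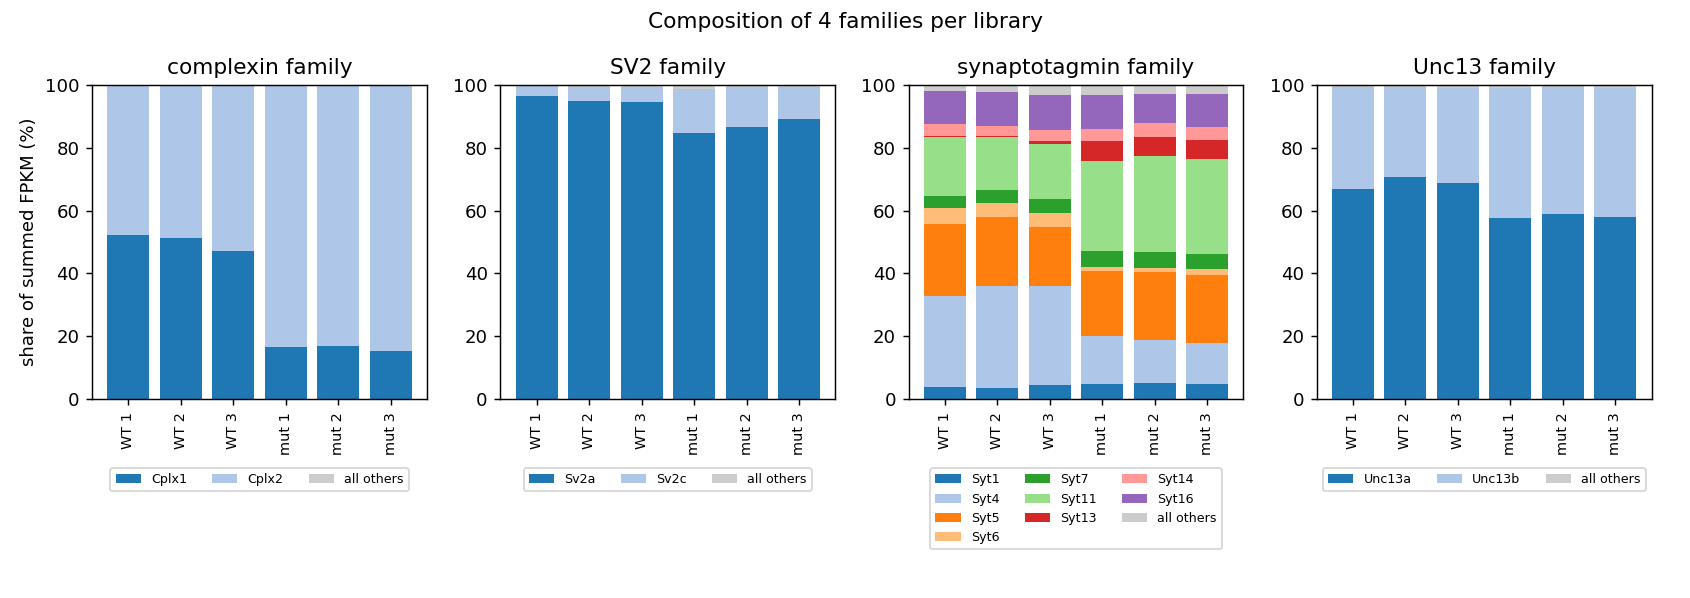
Share of the summed FPKM (y axis, percent) held by each paralog in each of the 6 libraries (x axis, WT wild type, mut mutant) for the complexin, SV2, synaptotagmin and Unc13 families. Cplx2 holds 47.8 to 52.9% in wild type and 83.2 to 84.8% in the mutant, and the Syt4 band shrinks while the Syt11 and Syt13 bands widen.

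Synaptotagmins, proteins of vesicle and other membranes of which only some bind calcium, held the largest changes among the release genes and moved both ways. From 16 genes, 15 were tested, of which 2 rose (13.3%, beside 11.2% of all genes), 5 fell (33.3%, beside 12.8%) and 8 did not pass. Syt6 (ENSMUSG00000027849, chromosome 3, 103575231 to 103645569, plus strand) was at 84.6, 85.2 and 80.8 CPM in wild type and at 15.9, 16.9 and 23.2 CPM in the mutant. This 4.48-fold fall (log2 fold change −2.16 ± 0.172, edgeR adjusted p = 2.04e-05) was the deepest among the release genes. Syt4 (ENSMUSG00000024261), a form that does not drive fast release and sits on dense-core vesicles and in the Golgi, was at 178, 219 and 210.0 CPM in wild type and at 72.3, 64.2 and 59.3 CPM in the mutant. It fell 3.10-fold (log2 fold change −1.63 ± 0.124, adjusted p = 1.86e-05, edgeR).

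Promoter sequence is shown for Syt6, which fell most, and for Syn1, which did not pass the test, since these windows held matches to the homeodomain motif of Dlx-type factors and to the motifs of neuronal genes that were searched. RefSeq promoters (GRCm38.p6, 250 bases before to 50 after a start) were found for 53 of the 68 genes. Syt4 and Syt13 had none, so they were not searched. TAATTA, the core that Dlx and many other homeodomain proteins bind, was found in 1 of 67 windows of these genes, that of Syt6. This is a lower share than the 5.29% of all 32851 windows. TGACGTCA, the cAMP response element, was found for Stxbp3 and Syn1, and in 1.79% of all windows. A core form of the RE1 element, bound by the repressor REST, was found for Syn1 and in 0.177% of all windows. Both strands were searched, and the matches in these windows do not overlap. From base −250 on, up to 200 bases before the first annotated exon are printed 5′ to 3′ on the gene's strand, with the matches in capitals. The Syt6 print is cut at 200 bases and ends at base −51, before its first exon. The Syt6 window is at chr3:103574995-103575194 (plus strand, TAATTA from base −224 before the start) and that of Syn1 at chrX:20921005-20921168 (minus strand, RE1 core from base −230 and the cAMP response element from base −159).
Syt6: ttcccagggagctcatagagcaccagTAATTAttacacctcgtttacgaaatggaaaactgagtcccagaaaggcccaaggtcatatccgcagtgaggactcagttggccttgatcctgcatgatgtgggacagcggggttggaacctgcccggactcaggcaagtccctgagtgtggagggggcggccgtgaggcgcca
Syn1: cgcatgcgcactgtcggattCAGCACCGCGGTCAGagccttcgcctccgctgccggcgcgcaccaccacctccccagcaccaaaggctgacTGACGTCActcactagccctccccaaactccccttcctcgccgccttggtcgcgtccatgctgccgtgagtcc
These matches describe the letters only; no binding was measured here, and a gene with no match in such a window may hold one elsewhere.

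Syt13 (ENSMUSG00000027220, chromosome 2, 92915098 to 92956058, plus strand), a form without the calcium-binding residues, showed the largest rise. Its 3 wild type libraries held 2.87, 3.12 and 7.85 CPM and its mutant libraries 28.5, 27.97 and 26.98 CPM. Wild type replicate 3 stood above the other wild type libraries, and every mutant library stood far above it. The log2 fold change was 2.54 ± 0.461, or 5.83-fold, with adjusted p = 8.26e-04 (edgeR), and 2.30 to 3.20 when any library was left out. Syt11, also without calcium binding and abundant in brain, rose by little but evenly, from 311, 306 and 311 CPM to 365, 375 and 369 CPM (log2 fold change 0.26 ± 0.0136, edgeR adjusted p = 0.00203).

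Smaller falls were seen in Syt5, a calcium-binding form, and in Syt16 and Syt14. Syt5 went from 94.6, 99.9 and 84.0 to 65.04, 65.9 and 65.5 CPM (1.42-fold, edgeR adjusted p = 0.0018). Syt16 went from 44.9, 50.4 and 51.8 to 35.0, 29.9 and 33.7 CPM (1.49-fold, edgeR adjusted p = 0.00235). The groups stayed apart for both. The call of Syt14 (75.1, 72.8 and 78.1 against 65.5, 67.3 and 62.6 CPM, edgeR adjusted p = 0.0377) was lost whichever of the 6 libraries was left out, with an adjusted p of up to 0.114 over the alternative fits.

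Syt1, the calcium sensor of fast release in forebrain neurons, was not called. It was at 95.95, 100.3 and 119 CPM in wild type and at 89.2, 92.95 and 89.6 CPM in the mutant (log2 fold change −0.22 ± 0.0977, edgeR adjusted p = 0.102). Its groups did not overlap, but wild type replicates 1 and 2 lay close above the mutant libraries. The other fast sensors, Syt2 and Syt9, were at 1.37 ± 0.293 and 10.2 ± 1.27 CPM in wild type and at 0.951 ± 0.449 and 9.97 ± 2.19 CPM in the mutant, with overlapping groups. Syt3 at 7.75 ± 2.005 and 4.99 ± 0.5595 CPM (edgeR adjusted p = 0.0529) and Syt7, a slow calcium sensor, at 49.1 ± 6.23 and 40.5 ± 2.34 CPM (edgeR adjusted p = 0.0791) missed the threshold, and both were called without wild type replicate 1. The remaining forms Syt10, Syt12 and Syt17 were below 4 CPM in every library, and Syt15 had too few reads for the test.

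The share of each paralog in the family is given here as a description. Syt4 held 28.9, 32.2 and 31.4% of the summed synaptotagmin FPKM in wild type and 15.3, 13.96 and 13.1% in the mutant. Syt11 went from 18.8, 16.8 and 17.4% to 28.9, 30.4 and 30.3%, and Syt13 from 0.484, 0.476 and 1.22% to 6.26, 6.31 and 6.17%. The sum over the family was lower in the mutant, with 154, 174 and 171 FPKM in wild type and 122.5, 119 and 116 FPKM in the mutant. With GENCODE exon lengths Syt11 rather than Syt4 held the largest wild type share (29.3 ± 1.38 against 25.5 ± 1.75%), and the direction of each of these 3 shares was as with FPKM.

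Of the neuronal SNAREs, Snap25 and Stx1a were lower and Vamp1 higher in the mutant, while Vamp2, the form with the highest FPKM, did not pass the test. Snap25, the plasma membrane SNARE that gives a pair of helices to the bundle, was at 81.8, 94.7 and 101 CPM in wild type and at 76.6, 66.9 and 64.7 CPM in the mutant (log2 fold change −0.42 ± 0.117, edgeR adjusted p = 0.0168). The groups did not overlap, but the call was lost in 4 of the 6 fits that left out a library and with the replicate block (edgeR adjusted p up to 0.0607). Stx1a was at 37.0, 49.3 and 43.9 CPM against 29.7, 31.8 and 32.0 CPM (1.40-fold lower, edgeR adjusted p = 0.0137, or 0.0528 without mutant replicate 1).

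Vamp1, the vesicle SNARE best known from hindbrain and spinal neurons, was at 9.18, 10.1 and 11.8 CPM in wild type and at 16.4, 18.98 and 15.5 CPM in the mutant. It rose 1.62-fold (log2 fold change 0.70 ± 0.137, edgeR adjusted p = 0.00588). Vamp2, the main vesicle SNARE of the forebrain, was at 193, 215 and 215 CPM against 208, 197 and 204 CPM (log2 fold change −0.03 ± 0.0566, edgeR adjusted p = 0.71). Per length Vamp2 outweighed Vamp1 in both genotypes, with Vamp1 at 1.80 ± 0.154% of their summed FPKM in wild type and 2.99 ± 0.383% in the mutant.

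The syntaxins and VAMPs of general membrane traffic were nearly even between genotypes. Of 18 genes 16 were tested, and Stx7, a syntaxin of late endosomes, was the one called (6.25%, beside 24.0% of all genes). It was at 141.5 ± 8.79 and 122.8 ± 5.31 CPM (log2 fold change −0.205 ± 0.0637, edgeR adjusted p = 0.0471). That call was lost in 5 of the 6 fits that left out a library. The median log2 fold change of the 16 genes was 0.00163 and their median absolute change 0.146, beside 0.192 over all genes tested. Stx12, an endosomal form, stood at 184 ± 2.22 and 165 ± 11.9 CPM, Stx16 of the trans-Golgi at 51.2 ± 0.959 and 54.8 ± 1.26 CPM, and Vamp3 of recycling endosomes at 46.5 ± 3.94 and 54.8 ± 3.25 CPM, none of them called. Stx11 and Vamp5 had too few reads for the test.

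Syntaxin binding proteins gave 2 lower calls of 6 (33.3%, beside 12.8% of all genes), both weak. Stxbp2, a syntaxin partner used mainly outside neurons, was at 13.9, 16.8 and 14.0 CPM in wild type and at 11.3, 11.1 and 11.6 CPM in the mutant (1.32-fold lower, edgeR adjusted p = 0.0302). Stxbp5 or tomosyn, which competes with VAMP for the target SNAREs, was at 76.7, 63.9 and 70.1 CPM against 61.3, 52.5 and 51.9 CPM (1.27-fold lower, edgeR adjusted p = 0.0312). The groups did not overlap for either gene, but each lost the call in 4 of the 6 fits that left out a library, with adjusted p up to 0.0972 and 0.103.

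Among vesicle proteins, Sv2c rose while Syp, Sv2a, Syn2 and Syn3 fell. Of these 11 genes, Rab3 genes included, 1 was thus higher (9.09%, beside 11.2% of all genes) and 4 lower (36.4%, beside 12.8%). SV2 proteins are transporter-like glycoproteins of the vesicle, with Sv2a found in nearly all neurons and Sv2c in fewer, including those of the basal ganglia. Sv2c (ENSMUSG00000051111, chromosome 13, 95954594 to 96132577, minus strand) was at 7.56, 12.2 and 12.7 CPM in wild type and at 34.0, 29.2 and 24.4 CPM in the mutant. The groups were well apart, with a log2 fold change of 1.41 ± 0.276 or 2.66-fold (edgeR adjusted p = 0.00158). Sv2a was at 118, 129.9 and 125 CPM against 102, 100.2 and 106 CPM (log2 fold change −0.28 ± 0.0484, edgeR adjusted p = 0.00967). Sv2b was rare, at 1.79 ± 0.792 and 3.02 ± 1.09 CPM, and was not called. The share of Sv2c in the summed SV2 FPKM went from 3.09, 4.45 and 4.78% to 14.1, 12.6 and 10.2%, with Sv2a holding most of the rest in every library.

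Syp encodes synaptophysin, the most familiar marker protein of synaptic vesicles. It was at 103, 119 and 114 CPM in wild type and at 76.3, 72.3 and 77.6 CPM in the mutant (log2 fold change −0.57 ± 0.0698, edgeR adjusted p = 7.19e-04). Synapsins tether vesicles to each other and to actin. Syn1 was at 82.2, 89.3 and 94.3 CPM against 84.4, 84.5 and 85.2 CPM, with overlapping groups (log2 fold change −0.07 ± 0.0577, edgeR adjusted p = 0.506). Syn2 went from 27.1, 32.4 and 36.1 to 23.0, 19.4 and 16.7 CPM (1.62-fold lower, edgeR adjusted p = 0.0104), and Syn3 from 23.6, 27.7 and 30.8 to 19.5, 17.5 and 16.9 CPM (1.53-fold lower, edgeR adjusted p = 0.0068). Syn1 thus held 77.0 ± 1.26% of the synapsin FPKM in wild type and 83.5 ± 1.80% in the mutant. Exons of Timp3 on the opposite strand cover 14.1% of the exon bases of Syn3; Timp3 rose by 0.316 on the log2 scale, and without strand its reads and those of Syn3 cannot be told apart there. Genes on the opposite strand also overlap Syp, Syt4 and Syt6, over 16.8, 14.5 and 8.67% of their exon bases, but held 158, 99 and 242 counts over all 6 libraries. The gene over Syt4 itself fell, by 1.28 on the log2 scale (edgeR adjusted p = 0.0153), and those over Syp and Syt6 were not called.

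Rab3 proteins are the GTPases through which vesicles bind Rims at the active zone. None of the 4 genes was called. Rab3a, the main form of brain vesicles, was at 92.8, 108 and 117 CPM against 97.3, 95.2 and 105 CPM (edgeR adjusted p = 0.471). Rab3c was at 190.0, 184 and 229 CPM against 163, 171 and 120.2 CPM, with groups apart but adjusted p = 0.0653 (edgeR). Rab3d had a spread that exceeded any difference, with 14.9 CPM in wild type replicate 1 and 13.1 CPM in mutant replicate 3 against 5.67 to 7.62 CPM in the other libraries.

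**Figure D3:**
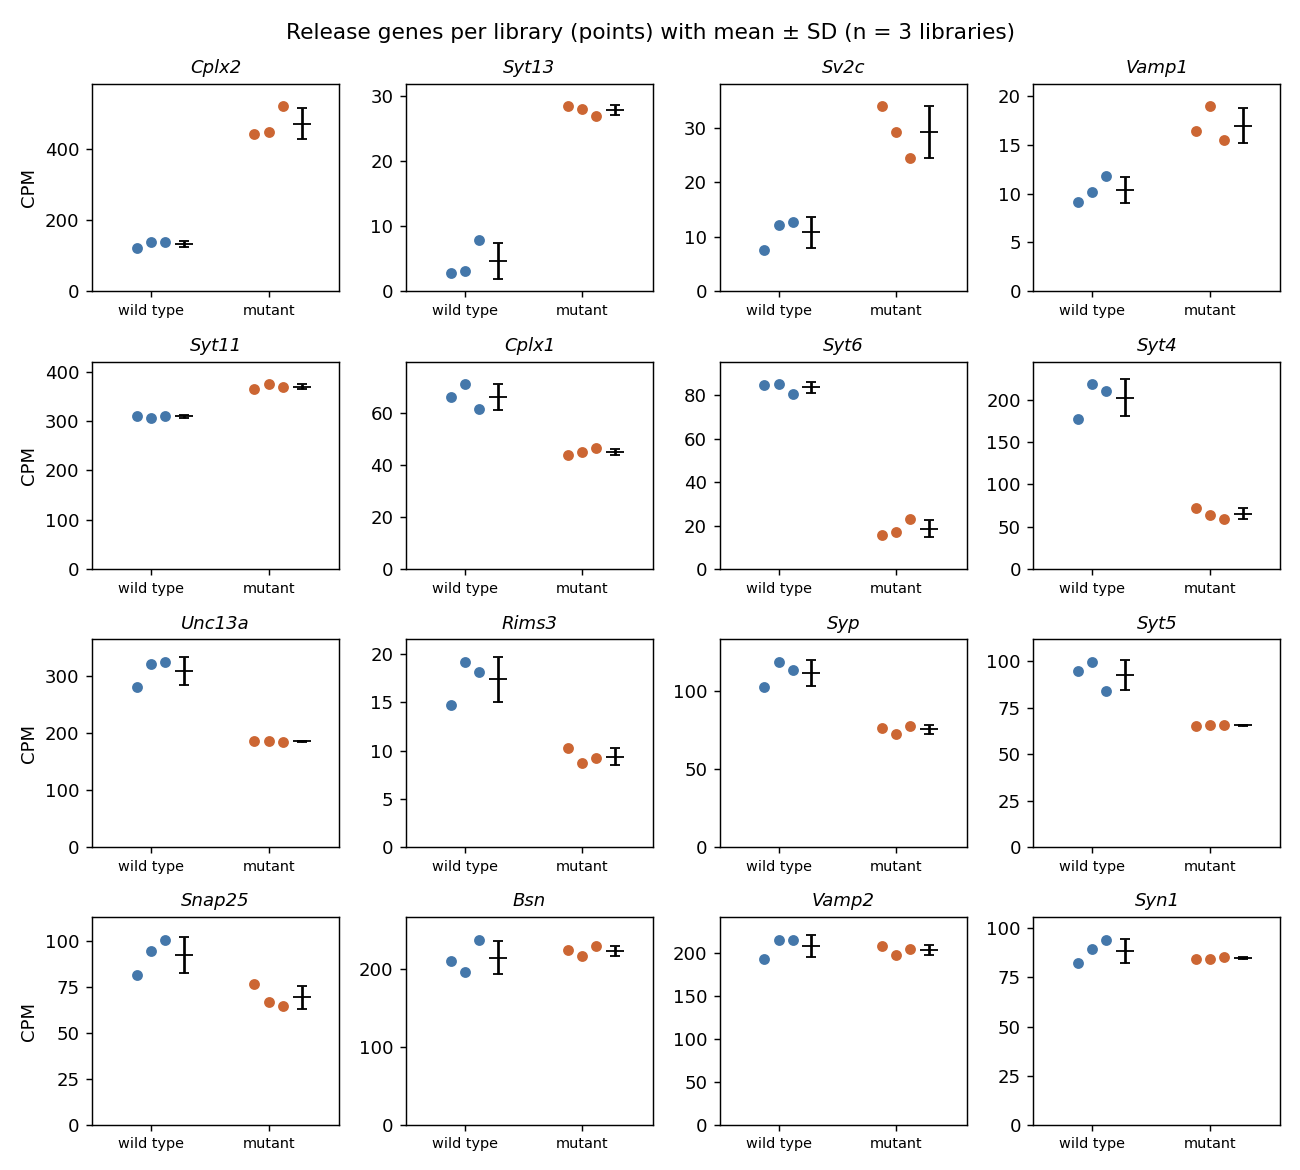
CPM (y axis, from 0) of 16 release genes in each library (points, 3 wild type in blue and 3 mutant in orange) with the mean ± SD beside them. Cplx2, Syt13 and Sv2c show all mutant libraries far above wild type, Syt6 and Syt4 far below, while the groups of Bsn, Vamp2 and Syn1 overlap.

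At the active zone, Unc13a and Rims3 fell and the large scaffold genes did not pass the test. These were 2 lower calls among 9 genes (22.2%, beside 12.8% of all genes). Unc13a encodes Munc13-1, which opens syntaxin and primes vesicles for fusion. It (ENSMUSG00000034799, chromosome 8, 71624417 to 71671757, minus strand) was at 282, 320.4 and 325 CPM in wild type and at 186, 187 and 185 CPM in the mutant. The mutant libraries were alike and all far below wild type (log2 fold change −0.74 ± 0.0664, edgeR adjusted p = 8.33e-05). Unc13b, for Munc13-2, was at 161, 153 and 166 CPM against 156, 150.1 and 153 CPM (edgeR adjusted p = 0.381). The share of Unc13a in the Unc13 FPKM went from 66.8, 70.6 and 68.9% to 57.6, 58.8 and 58.0%, and the family sum from 29.5 ± 2.04 to 21.3 ± 0.281 FPKM.

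Rims proteins link Rab3, calcium channels and Munc13, and Rims3 and Rims4 encode short forms. Rims3 (ENSMUSG00000032890, chromosome 4, 120854816 to 120896579, plus strand) was at 14.7, 19.2 and 18.2 CPM in wild type and at 10.3, 8.67 and 9.18 CPM in the mutant (1.86-fold lower, edgeR adjusted p = 0.00173). Rims1 was at 23.9, 32.9 and 40.1 CPM against 24.5, 22.5 and 22.0 CPM, with 1 wild type library inside the mutant range (edgeR adjusted p = 0.0688, called without wild type replicate 1). Rims2 was at 56.9 ± 2.78 and 54.9 ± 2.905 CPM, and Rims4 at 18.2 ± 2.68 and 15.5 ± 2.07 CPM. The scaffold gene Bsn, for Bassoon, was at 211, 196 and 238 CPM against 225, 217 and 229.6 CPM (log2 fold change 0.06 ± 0.0858, edgeR adjusted p = 0.62). Pclo, for Piccolo, was at 89.1, 99.99 and 115.5 CPM against 93.1, 83.9 and 83.6 CPM (log2 fold change −0.23 ± 0.12, edgeR adjusted p = 0.136, called lower without wild type replicate 1).

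The 6 paralogs whose shares of their family's FPKM are given per library, Cplx2, Sv2c, Syt4, Syt11, Syt13 and Unc13a, were chosen for these shifts, and 3 against 3 libraries cannot reach an exact permutation p below 0.1, so the shares carry no test. The difference of the mean share, mutant minus wild type, was 33.9 percentage points for Cplx2, 12.2 for Syt11, 8.2 for Sv2c and 5.5 for Syt13, and it was −16.7 for Syt4 and −10.6 for Unc13a.

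**Figure D4:**
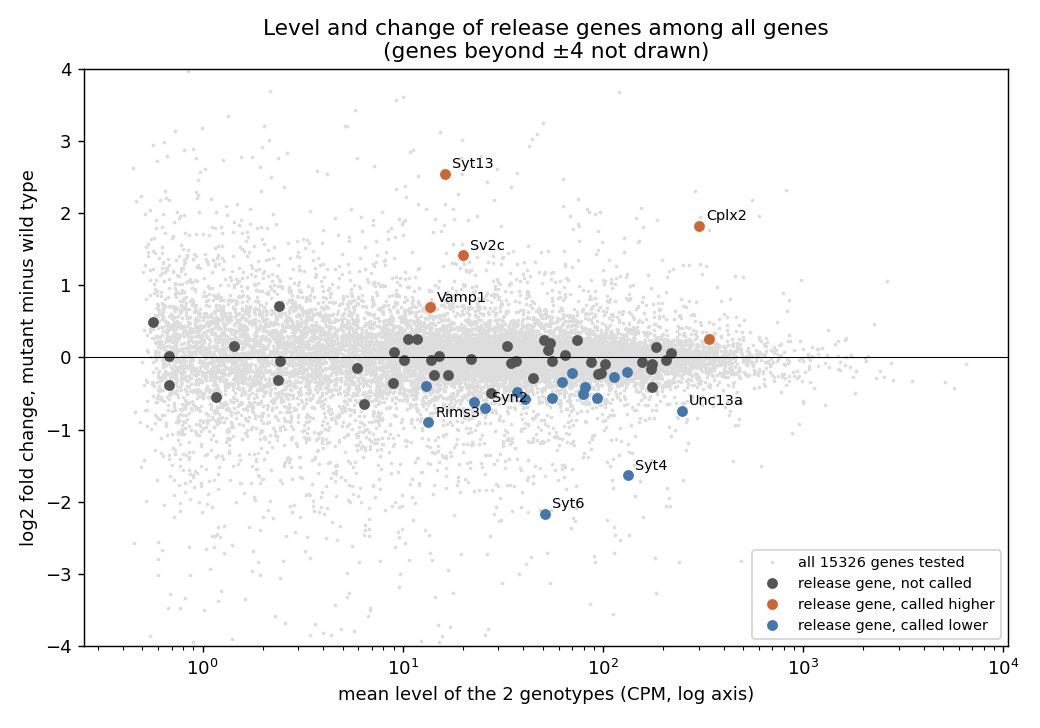
Log2 fold change (y axis, mutant minus wild type) against mean level (x axis, CPM on a log axis) for the 15326 genes tested (light grey, those beyond ±4 not drawn) and the release genes (orange called higher, blue called lower, dark grey not called). Cplx2, at 132.7 and 469.3 CPM, combines a high level with a large change, whereas Syt13 and Sv2c rise from 4.61 and 10.8 CPM.

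Other genes of the release pathway were read from 5 lists, with 106 genes in the table and 100 tested, of which 6 rose and 23 fell, 29 calls that came to 19 without mutant replicate 2. These were 6.0% higher and 23.0% lower, beside 11.2 and 12.8% of all genes, and 29.0% called in all, near the 24.0% of all genes. Of the genes for docking, priming and active zone proteins, 8 of 26 fell (30.8%, beside 12.8% of all genes). Among them Doc2b, a calcium sensor of spontaneous release, fell from 24.85 ± 4.604 to 7.95 ± 0.814 CPM (edgeR adjusted p = 1.84e-04), Lin7a from 43.5 ± 2.15 to 20.7 ± 2.66 CPM, Ppfia4, a liprin, from 15.2 ± 2.79 to 6.79 ± 0.622 CPM and Apba1, an adaptor protein, from 98.5 ± 8.07 to 65.8 ± 4.64 CPM. Among other vesicle proteins, 4 of 22 fell (18.2%, beside 12.8% of all genes) and 1 rose (4.55%, beside 11.2%). There Syngr3 and Syngr1, relatives of synaptophysin, fell by 0.63 and 0.51 on the log2 scale, while Sytl5, a synaptotagmin-like protein, rose from 4.32 ± 0.275 to 15.6 ± 2.29 CPM.

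Genes of vesicle retrieval by endocytosis showed 8 falls (34.8%, beside 12.8% of all genes) and 1 rise (4.35%, beside 11.2%) among 23, all below 2-fold, with Pacsin1 the largest at 30.7 ± 4.32 and 16.2 ± 0.900 CPM and Amph, for amphiphysin, the rise, at 55.2 ± 3.17 and 72.2 ± 8.54 CPM. SNARE disassembly and Golgi SNARE genes were nearly even: of 16, Nsf, the ATPase that takes used SNAREs apart, rose from 64.0 ± 5.37 to 81.9 ± 5.25 CPM (edgeR adjusted p = 0.0153) and the others did not pass. That is 6.25% higher, beside 11.2% of all genes. Dense-core vesicle genes split, with 3 of 13 higher and 3 lower (23.1% each, beside 11.2 and 12.8% of all genes), and granin genes moved both ways. Vgf and Scg2 fell from 11.04 ± 2.29 to 3.23 ± 0.579 CPM and from 11.1 ± 3.39 to 4.895 ± 0.794 CPM, and Scg5 by 0.56 on the log2 scale, while Pam, an enzyme that amidates peptides, rose by 0.59. Chgb, for chromogranin B, rose from 30.5 ± 3.71 to 43.1 ± 3.45 CPM and Scg3 from 164 ± 11.9 to 188 ± 1.97 CPM (edgeR adjusted p = 0.0114 and 0.0424). The median log2 fold change over the 100 genes was −0.0597, beside 0.0028 over all genes tested.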

How the data were processed

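Levels were read from 1 deposited table with raw read counts, FPKM and a p-value per gene, per the file headers; counts are whole numbers. HISAT2 2.0.4, StringTie 1.3.0 and edgeR stand in the submitters' processing notes, as do GRCm38.p4 and mm10, with no role stated. How reads were counted, on which annotation and with what strandedness was not given in the sources used here. FPKM values, as the authors deposited them, use a gene length that was 0.296 to 2.72 times the GENCODE M21 exon length for the release genes with over 50 counts in every library, so the order of levels was also taken with GENCODE lengths. The authors' p-values were used only for a count of shared calls. Positions came from GENCODE M21 (GRCm38) by gene ID, for 67 of 68 genes; 25 date-like symbols were restored.

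These counts were fitted in R 4.3.3 with edgeR 4.0.16 (filterByExpr, TMM, quasi-likelihood F test, two-sided, Benjamini-Hochberg over 15326 genes, threshold 0.05), after tests on simulated data. CPM are TMM-scaled. SEs of log2 fold changes were taken from log2 CPM with 0.5 added to each count. Replicate pairs differed by more than sampling noise (chi-square per degree of freedom 7.64 to 15.3). Same-numbered libraries correlated at −0.176, 0.0426 and −0.168 in their deviations from the group mean, and other pairs at −0.136 to 0.25. These values show no pairing by number. They cannot exclude a shared litter or batch, since deviations from a group mean constrain each other. Alternatives were a replicate block, each library left out in turn, RLE scaling, testing without a filter, DESeq2 1.42.0 and adjusted p below 0.01. Values per library were given for core release genes whatever their result and for up to 15 called genes per direction with the largest changes; of each other list up to 4 genes with the smallest adjusted p were named. The members and lists were chosen with earlier results of these data known. The labels give no batch. Some genes of the lists are not reported here, but remain in the counts and medians.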

Additional observations from a re-analysis of the deposited data

How the results depend on the processing

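Of the 22 release genes called, 16 kept the call and direction in every alternative fit at the 0.05 threshold: Cplx1, Cplx2, Syt4, Syt5, Syt6, Syt11, Syt13, Syt16, Vamp1, Sv2a, Sv2c, Syn2, Syn3, Syp, Unc13a and Rims3. Snap25, Stx1a, Stx7, Syt14, Stxbp2 and Stxbp5 lost it in at least 1. With the replicate number as a block, 5 release genes were higher and 13 lower, and 19 genes of the pathway lists were called in place of 29. Leaving out each library in turn gave 5 to 6 release genes higher, 12 to 19 lower, a median log2 fold change of −0.202 (without wild type replicate 1) to −0.0764, and 19 to 26 pathway genes. At adjusted p below 0.01, 5 release genes were higher and 10 lower, with 16 pathway genes, and 875 and 1116 of all genes. RLE scaling changed no call of a release gene. DESeq2 gave 5 higher and 17 lower, without Stxbp2 and Syt14 and with Rab3c and Rims1. No called release gene changed sign in these fits. The uncalled genes reported here that did, over the fits leaving out a library, ranged as follows on the log2 scale: Stx5a −0.037 to 0.0736, Rab3d −0.278 to 0.625, Stx8 −0.122 to 0.00622, Stx4a −0.00469 to 0.0576, Bsn −0.00821 to 0.136, Stx3 −0.485 to 0.0702, Syt12 −0.447 to 0.4997, Vamp8 −0.00893 to 0.391, Syt17 −0.301 to 0.417 (0.0227 with the replicate block), Stx17 −0.0771 to 0.0655, Unc13c −0.499 to 0.127 and Syt9 −0.234 to 0.0595. The cause of these differences was not tested. A count of 3 corresponds to 0.181 to 0.287 CPM in a library, which limits what can be read for Cplx3, Stx11 and the rarest synaptotagmins.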
